A study of Sus scrofa with 8 samples.

Results

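The fast-fibre troponins, myosin light chains and tropomyosin described here are the contractile proteins of fast-twitch muscle fibres. Their probe sets were chosen by gene symbol from a list of 8 genes (TNNT3, TNNC2, TNNI2, MYLPF, MYL1, MYH1, MYH4 and TPM1) in the array's annotation. Of these genes 6 were found, out of 6765 genes named on a probe set with 1 symbol, and they took up 8 of the 23999 probe sets of the table. MYH1 and MYH4, the heavy chains of type 2X and type 2B fibres, were named on no probe set and are not analysed here. TNNT3, TNNC2, TNNI2, MYLPF and MYL1 had 1 probe set each and TPM1 had 3, and the probe set with the highest mean log2 level over the 8 arrays leads for each gene.

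The muscle sampled was the biceps femoris of the hind limb, from female domestic piglets in a model of acute quadriplegic myopathy, the severe limb weakness seen in intensive care. The 4 control and the 4 corticosteroid arrays both came from animals that were sedated with isoflurane, given morphine and ketamine as needed, and ventilated for 5 days, with prophylactic antibiotics and glucose. The corticosteroid group also received bolus doses of hydrocortisone. The treatment text of the control samples describes 4 piglets weighing 25.5 kg on average and ends with an Escherichia coli endotoxin infusion. Their source label has no endotoxin. That of the corticosteroid samples describes 8 piglets of 26.4 kg and no endotoxin. The series text adds an infusion of the neuromuscular blocker pancuronium without saying which animals had it. Endotoxin, any difference in handling and hydrocortisone therefore cannot be told apart between these groups. Nothing in the labels states that each array is a separate animal, so the p-values may measure a technical spread only. No unventilated animals are among the samples.

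Striated muscle contracts when myosin heads on the thick filament pull on actin in the thin filament. Calcium binding to troponin C moves troponin I and, through troponin T, shifts tropomyosin across the surface of the thin filament so that myosin can attach. Fast and slow fibres carry different versions of most of these proteins from separate genes, so the balance between the versions follows the fibre type. In acute quadriplegic myopathy a preferential loss of myosin is a known feature of the muscle.

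The labelled tissue was checked first. Of 7 skeletal muscle markers 5 had a probe set (CKM, TTN, NEB, DES and TCAP), and their mean log2 level lay between 12.62 and 13.10 on all arrays. Array medians ran from 5.873 to 5.972 log2. Precision is limited by the number of arrays, and the median standard error of a log2 difference was 0.219 over the 14361 probe sets tested. All 6 lead probe sets of the fast-fibre genes were at or above the 99.18th percentile of every array. The highest of their values lay 0.21 log2 units below the brightest probe set of the same array. How far signal flattens at that height was not tested, and a flattened signal would make log2 differences too small. In whole muscle, fewer fast fibres and less fast-fibre RNA per fibre cannot be told apart.

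Corticosteroid-treated muscle had higher mean levels than control muscle for all 6 lead probe sets, by 0.0091 to 0.66 log2 units, and none of these differences passed the limma test. Over all tested probe sets 52.8% had a higher corticosteroid mean. The 3 troponins and tropomyosin differed by 0.43 to 0.66, and both light chains by 0.13 or less. No probe set of the whole table passed an adjusted p of 0.05 (0 of 14361, 0.0%), with 1363 (9.49%) at an unadjusted p under 0.05. The smallest adjusted p of the table was 0.469. Among the 8 member probe sets, 3 had a higher corticosteroid mean at an unadjusted p under 0.05, against 4.78% of all tested probe sets. For 2 of the 8 every treated array lay above every control, against 3.05% of all tested probe sets (5.56% counting separation in either direction).

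**Figure D1:**
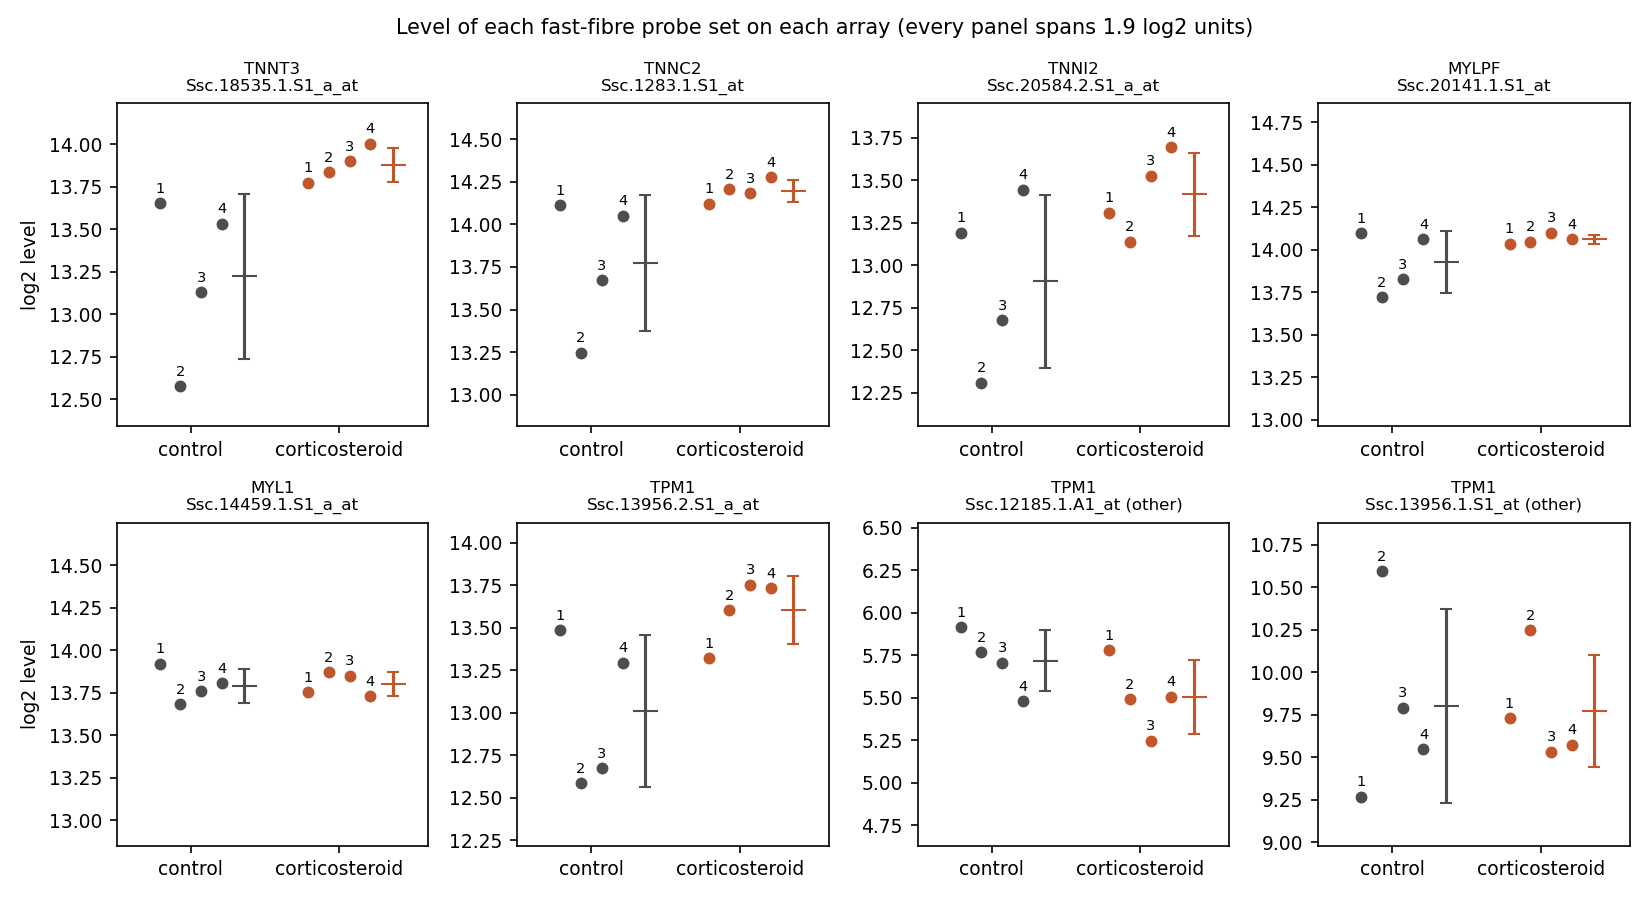
The log2 level of each of the 8 probe sets on each array, with grey points for control and orange points for corticosteroid, replicate numbers above the points, and mean with SD (n = 4) beside them. Control arrays 2 and 3 are the lowest in the troponin panels, and the TNNT3 and TNNC2 groups do not overlap.

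Fast troponin T (TNNT3), which ties the troponin complex to tropomyosin, had the largest difference of the lead probe sets. On control arrays 1 to 4 its log2 level (probe set Ssc.18535.1.S1_a_at) was 13.65, 12.58, 13.13 and 13.53. On corticosteroid arrays 1 to 4 it was 13.77, 13.84, 13.90 and 14.00. Each treated array was above each control, with a gap of 0.12 between control array 1 and corticosteroid array 1. The control mean was 13.22 ± 0.48 (SD, n = 4) and the corticosteroid mean 13.88 ± 0.098 (SD, n = 4). The log2 difference was 0.66 (SE 0.21, 95% interval 0.19 to 1.12), which is 1.57-fold (1.14 to 2.18), with an unadjusted p of 0.0112 and an adjusted p of 0.479 in limma.

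Fast troponin C (TNNC2), the calcium sensor of fast fibres, stood at 14.11, 13.25, 13.67 and 14.05 on control arrays 1 to 4 (Ssc.1283.1.S1_at). It stood at 14.12, 14.21, 14.18 and 14.28 on corticosteroid arrays 1 to 4. The groups did not overlap, but the lowest treated array and control array 1 were 0.0077 log2 units apart, far less than the spread within either group. The difference was 0.43 (SE 0.17, 95% interval 0.04 to 0.81), or 1.34-fold (1.03 to 1.76), with an unadjusted p of 0.0346 and an adjusted p of 0.495 in limma. The control mean was 13.77 ± 0.40 (SD, n = 4) and the treated mean 14.20 ± 0.065 (SD, n = 4).

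Fast troponin I (TNNI2), the inhibitory subunit that holds contraction off at low calcium, overlapped between the groups. Its control log2 levels were 13.19, 12.31, 12.68 and 13.45 and its corticosteroid levels 13.31, 13.14, 13.53 and 13.69 (Ssc.20584.2.S1_a_at). Control array 4 lay above corticosteroid arrays 1 and 2, while control arrays 2 and 3 lay below all treated arrays. The difference was 0.51 (SE 0.24, 95% interval -0.02 to 1.04), 1.43-fold, with an unadjusted p of 0.0581 and an adjusted p of 0.533 in limma.

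TNNI2 and TNNT3 lie close together in the pig genome, with LSP1 and 1 unnamed locus between them in the RefSeq gene order of Sscrofa11.1. Control array 2 was the lowest, control array 3 the second lowest and corticosteroid array 4 the highest for both of these genes, and also for TNNC2.

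Tropomyosin 1 (TPM1), the coiled-coil protein that lies along actin and blocks or opens the myosin sites, was read by 3 probe sets that differed from each other. TPM1 is spliced into many forms and is also made in smooth muscle, heart and non-muscle cells, so its probe sets need not read the fast-fibre form alone. The lead probe set (Ssc.13956.2.S1_a_at) had log2 levels of 13.49, 12.59, 12.68 and 13.30 in controls and 13.32, 13.61, 13.75 and 13.74 with corticosteroid. Control arrays 2 and 3 were low, and corticosteroid array 1 lay between controls 4 and 1. The difference was 0.59 (SE 0.21, 95% interval 0.12 to 1.06), 1.51-fold (1.09 to 2.09), with an unadjusted p of 0.0183 and an adjusted p of 0.479 in limma.

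The other TPM1 probe sets had lower corticosteroid means by small amounts. Ssc.13956.1.S1_at stood at 9.27, 10.59, 9.79 and 9.55 in controls and at 9.73, 10.25, 9.53 and 9.57 with corticosteroid. Control array 2, the lowest array for the lead probe set, was the highest here. The difference was -0.03 (SE 0.30, 95% interval -0.69 to 0.64, adjusted p = 0.981 in limma), and it was 0.24 without control array 2 and 0.36 without control arrays 2 and 3. Ssc.12185.1.A1_at ran from 5.48 to 5.91 in controls and from 5.25 to 5.78 with corticosteroid. These levels are low, between percentiles 40.3 and 50.1 of their arrays and close to the filter level of 5.27. Corticosteroid array 3 lay under that level. Its difference was -0.21 (SE 0.16, 95% interval -0.56 to 0.14, adjusted p = 0.650 in limma). Whether the 3 probe sets differ in their response was not tested, and the interval of Ssc.13956.1.S1_at holds the 0.59 of the lead probe set.

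The fast regulatory light chain MYLPF, which sits on the neck of the myosin head and tunes its movement, had control log2 levels of 14.10, 13.72, 13.82 and 14.06 (Ssc.20141.1.S1_at). With corticosteroid it had 14.03, 14.05, 14.10 and 14.06. The treated arrays lay within 0.066 log2 units of each other and inside or just above the control range of 0.38. The difference was 0.13 (SE 0.097, 95% interval -0.08 to 0.35), with an adjusted p of 0.642 in limma.

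MYL1, the gene of the fast essential light chains that stiffen the neck of the myosin head, was the member with the smallest difference between the groups. Its control log2 levels were 13.92, 13.68, 13.76 and 13.80 and its corticosteroid levels 13.75, 13.87, 13.85 and 13.73 (Ssc.14459.1.S1_a_at). All treated arrays lay inside the control range. The difference was 0.0091 (SE 0.082, 95% interval -0.18 to 0.19, adjusted p = 0.978 in limma), so a difference of the size measured for TNNT3 or TPM1 lies outside its interval. That interval holds for the signal as measured, which is close to the top of the arrays' range. The sign of the MYL1 difference turned when arrays were quantile-normalized (-0.048).

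Each of the 6 lead probe sets had its lowest value on control array 2, which was the lowest array for 24.1% of all tested probe sets. For 5 of them, all but MYL1, control array 3 was the second lowest. This order of both arrays was found for 6.66% of all tested probe sets. It was not particular to fast-fibre genes. TMOD4, MYOM2 and TCAP, on a list of sarcomere genes not specific to fast or slow fibres, had the same order. Control array 2 was lowest for 7 of the 11 measured genes of that list, and for 1 of 11 slow-fibre genes. That 1 gene was TPM2, which is on both lists. The mean of the skeletal muscle markers was also lowest on control array 2 (12.62), then on control array 3 (12.73). Corticosteroid array 4 was the highest for the 3 troponins, corticosteroid array 3 for MYLPF and TPM1, and control array 1 for MYL1.

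Without control array 2 the differences were 0.44 for TNNT3, 0.25 for TNNC2, 0.31 for TNNI2, 0.45 for TPM1, 0.066 for MYLPF and -0.028 for MYL1. At an unadjusted p under 0.05 there were then 2 of the 8 member probe sets, TNNT3 (0.00841) and TPM1 (0.0466), beside 3.66% of all tested probe sets on the higher side. Without control array 3 TNNT3 alone of the 6 lead probe sets was at an unadjusted p under 0.05. Of all tested probe sets 3.27% were, on the higher side. Without corticosteroid array 3 or 4 TNNT3 and TPM1 were, beside 3.73% and 3.29%. Without control array 1 or 4 TNNT3, TNNC2, TNNI2 and TPM1 were, beside 6.19% and 5.46%. Without corticosteroid array 1 they were TNNT3, TNNC2 and TPM1 (beside 6.01%), and without corticosteroid array 2 TNNT3, TNNI2 and TPM1 (beside 3.86%). Without control arrays 2 and 3, an alternative added once the data had been seen, the TNNT3 difference was 0.29 (SE 0.10, unadjusted p = 0.0246 in limma). Those of the other lead probe sets then ran from -0.062 for MYL1 to 0.21 for TPM1, with MYLPF at -0.018. TNNT3 was then the only one of the 8 at an unadjusted p under 0.05, beside 2% of all tested probe sets on the higher side.

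Macrophage markers also set control array 2 apart. All 6 of the 8 listed macrophage markers that had a probe set were highest on it. Their mean log2 level was 9.49 on control array 2, 6.30 to 6.96 on the other controls and 6.16 to 6.80 on the treated arrays, and CD14 on control array 4 (5.22) was the one value under the filter level of 5.27. TYROBP, a signalling adaptor of myeloid cells, stood at 10.17 on control array 2 and at 5.81 to 7.06 on the other 7 arrays. AIF1, a marker of macrophages, stood at 9.62 there and at 6.03 to 6.67 elsewhere. The mean of 4 fibroblast markers was 9.51 on control array 2 and 8.41 to 9.07 elsewhere, but the markers differed: COL1A2 (10.13 against at most 8.53) and LUM (9.80 against at most 9.05) were high there. DCN was 11.63 against at most 11.51, and COL3A1 was lowest there (6.48). Of 4 smooth muscle and pericyte markers ACTA2 and RGS5 were highest on control array 2, TAGLN on corticosteroid array 1 and PDGFRB on control array 3. MYF5, the 1 satellite cell marker measured, was 7.88 on control array 2 and at most 6.34 elsewhere. Of 3 adipocyte markers FABP4 was highest on control array 2 (12.9, against at most 12.6), ADIPOQ on corticosteroid array 2 and LEP on control array 1. Control array 3 had no such excess of macrophage markers (6.93). It had the highest mean of the pair of erythroid markers (8.41, against 6.29 to 7.15 elsewhere). That excess came mainly from ALAS2 (8.47, against 5.51 to 6.10 elsewhere), as HBB was 8.34 there and 8.28 on control array 4. None of 3 neutrophil markers had a mean above the filter level, and S100A8 and S100A12 were below it on all arrays. S100A9 was highest on control array 3 (6.85), with 5.64 and 5.68 on control arrays 1 and 2, 3.90 on control array 4 and 3.61 to 5.31 on the treated arrays. The mean of 5 endothelial markers ran from 7.54 to 7.95. The part of these other cells in the fast-fibre levels was not tested; the TNNT3 and TPM1 values without control array 2 are given with the leave-out values.

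**Figure D2:**
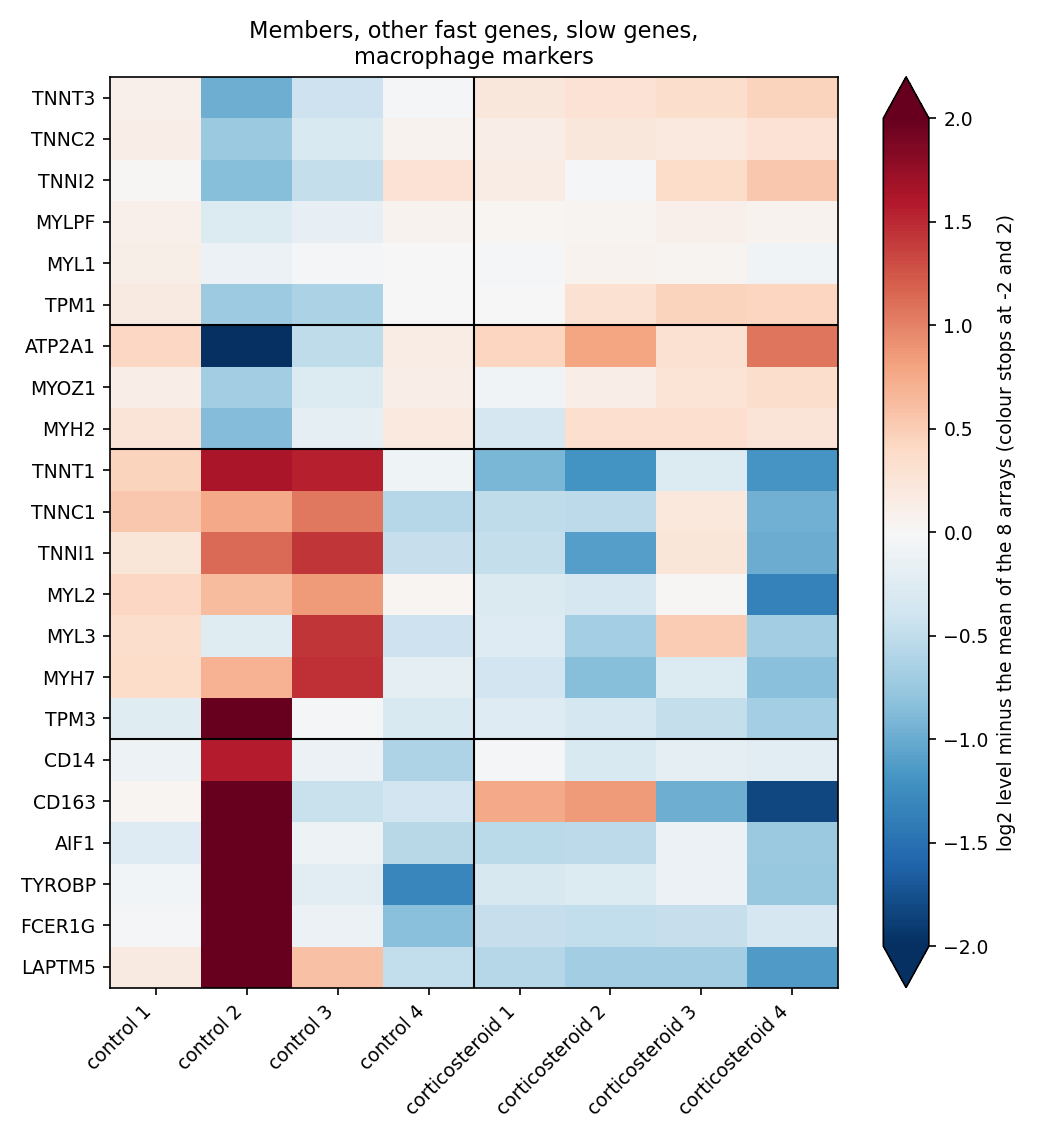
Log2 level minus the mean of the 8 arrays, in colour, for the 6 member genes (top), 3 other fast-fibre genes, 7 slow-fibre genes and 6 macrophage markers, with 1 column per array and a vertical line between the groups. Control array 2 is blue for most fast genes, pale for MYL1 and MYLPF, and dark red for the macrophage markers. Control array 3 is pale for most macrophage markers and red for most slow genes.

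The arrays of the corticosteroid group lay closer together than the controls. The SD over the 4 control arrays was larger than over the 4 treated arrays for all 6 lead probe sets, against 57.2% of all tested probe sets. Other muscle genes shared this. The control SD was larger for 3 of 3 other fast-fibre genes and 9 of 11 slow-fibre genes. It was also larger for 8 of 11 sarcomere genes on the list specific to neither, which shares TPM2 and MYBPC1 with the slow-fibre list. The ratio of the SDs was 4.95 for TNNT3, 6.20 for TNNC2, 2.09 for TNNI2, 2.24 for TPM1, 6.44 for MYLPF and 1.41 for MYL1. Its median over these 6 was 3.59 and over all tested probe sets 1.13. The median ratio was 2.15 for the other fast-fibre genes, 1.47 for the slow-fibre genes and 1.17 for the list specific to neither. With control array 2 left out the control SD was still the larger for 6 of 6, with a median ratio of 2.45, against 0.922 over all tested probe sets. This ratio was not tested. Limma takes 1 spread for both groups.

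Other fast-fibre genes were taken from a list of 12, of which 3 had a probe set, and all 3 had a higher corticosteroid mean with none at an unadjusted p under 0.05. ATP2A1, the calcium pump of the fast-fibre sarcoplasmic reticulum, had log2 levels of 11.88, 8.82, 10.96 and 11.63 in controls and 11.91, 12.26, 11.78 and 12.55 with corticosteroid. Control array 2 stood far below the rest, and the difference of 1.30 (SE 0.58, adjusted p = 0.524 in limma) was 0.63 without it, at an unadjusted p under 0.05. Its second probe set differed by 1.23. MYOZ1, a Z-disc protein of fast fibres, differed by 0.35 (SE 0.19, adjusted p = 0.568 in limma), and by 0.17 without control array 2.

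MYH2, the heavy chain of type 2A fibres, was the fast myosin heavy chain named on the array. Its log2 levels were 13.75, 12.63, 13.30 and 13.68 in controls and 13.16, 13.82, 13.82 and 13.74 with corticosteroid. The groups overlapped, with control array 2 and corticosteroid array 1 low, and the difference was 0.29 (SE 0.25, adjusted p = 0.687 in limma). It was 0.056 without control array 2. MYH4, MYH1 and MYH2 follow one another in the RefSeq gene order and are close relatives. Whether the MYH2 probes also read RNA of the other two was not tested.

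Over the 9 measured fast-fibre genes, members included, the median log2 difference was 0.43, and it was 0.021 over all tested probe sets. The fast-fibre median was 0.25 without control array 2 and 0.099 without control arrays 2 and 3. Over 11 measured slow-fibre genes of 14 listed it was -0.95, with 10 lower means. TPM2, which both fibre types express, was the one with a higher mean (0.30, SE 0.18). The middle value of the slow list, -0.95, was that of CASQ2, whose mean level of 5.38 was close to the filter level of 5.27. CASQ2 stood at 7.67 on control array 2 and at 4.32 to 6.05 elsewhere. Without control array 2 it fell under the filter, and the slow-fibre median was -0.87 over the 10 genes left. For the slow list 6 were at an unadjusted p under 0.05, all lower, against 4.71% of all tested probe sets on that side. Without any 1 of control arrays 2 and 3 and corticosteroid arrays 2 and 4 there were 4 (TNNT1, MYL2, MYH7 and ATP2A2), against 2.94% to 5.04%. There were 5 without control array 1 (against 6.18%) and 7 without control array 4 (against 4.28%). Without corticosteroid array 1 or 3 there were 6, against 5.61% and 3.43%. Without control arrays 2 and 3 together there were 3, TNNT1, MYH7 and ATP2A2, against 2.67%. The slow-fibre median was then -0.55 over the 10 genes that passed the filter. Of the 11, 4 had all treated arrays below all controls, against 2.51%. The lists overlap in function with the members and were chosen with earlier results known, so no test of the lists was made. Of 13 sarcomere genes on a list not specific to fast or slow fibres, 11 had a probe set. Among these, 7 had higher and 4 had lower corticosteroid means, and the median difference was 0.095. The M-band protein MYOM1 (1.21, SE 0.35) and the thin-filament capping protein TMOD4 (1.05, SE 0.38) were the ones at an unadjusted p under 0.05. Neither passed after adjustment. TPM2 and MYBPC1 are on both this list and the slow-fibre list and were counted in each.

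**Figure D3:**
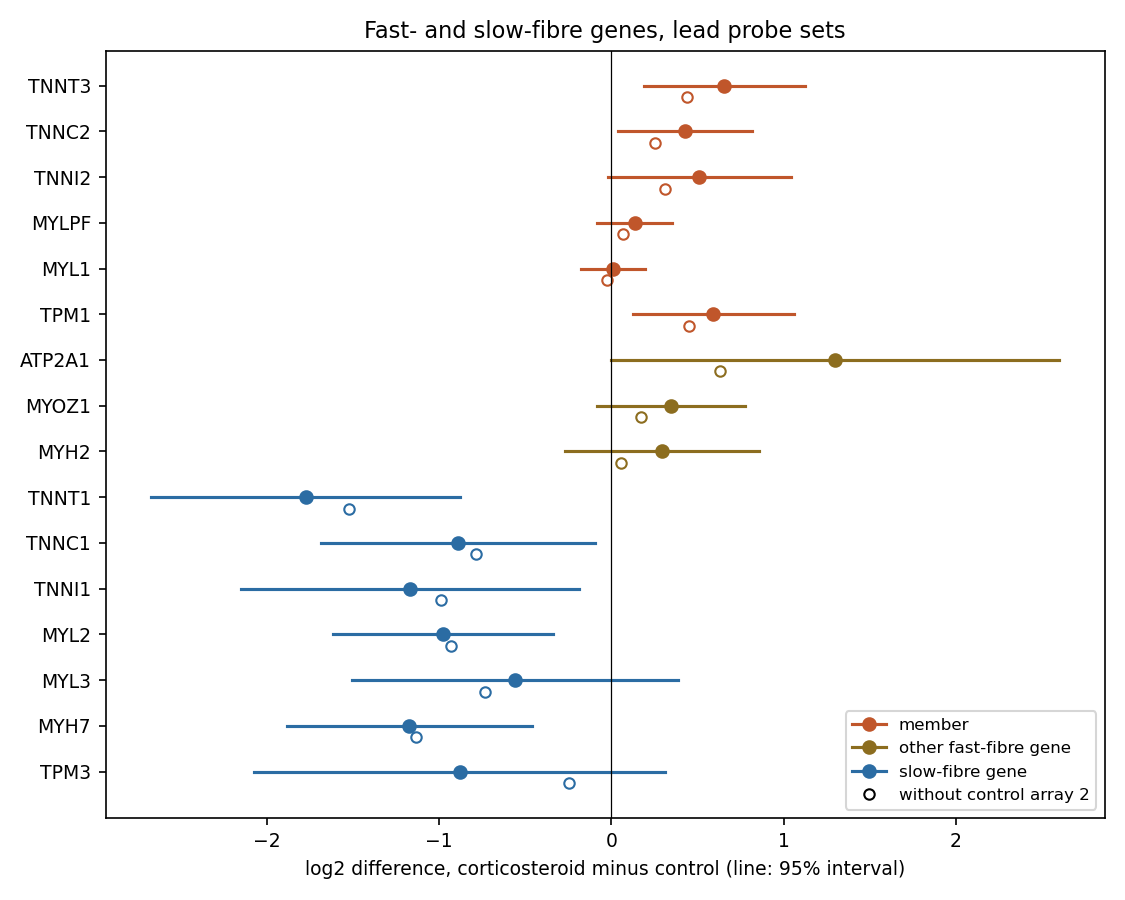
Log2 difference, corticosteroid minus control, of the lead probe set of each gene, with the 95% interval from limma as a line and the value without control array 2 as an open circle. The TNNT3, TNNC2 and TPM1 intervals lie above 0 before adjustment, that of MYL1 is narrow around 0, and the 7 slow-fibre values plotted lie below 0.

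Each fast gene was then set against its slow-fibre partner on the same array, which cancels any factor that scales a whole array. The height of such a value depends on the probes, so only differences between arrays were read, as descriptions. The log2 level of TNNT3 minus that of slow troponin T (TNNT1) was 2.90, 0.64, 1.28 and 3.32 on control arrays 1 to 4. It was 4.38, 4.73, 3.88 and 4.88 on the corticosteroid arrays. The groups did not overlap, and the mean was 2.43 higher with corticosteroid, or 1.96 higher without control array 2. Most of that came from the slow partner: TNNT1 itself differed by -1.78 (SE 0.40, adjusted p = 0.469 in limma) and TNNT3 by 0.66. Both probe sets kept their rows in the re-assignment described with the processing.

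TNNI2 minus slow troponin I (TNNI1) was 2.18, 0.42, 0.48 and 3.13 in controls and 3.02, 3.47, 2.52 and 3.93 with corticosteroid. Control arrays 2 and 3 were low, and control array 4 was above corticosteroid arrays 1 and 3. The mean was 1.68 higher with corticosteroid. TNNC2 minus TNNC1, the troponin C of slow and cardiac muscle, was 1.41, 0.31, 0.45 and 2.45 in controls and 2.46, 2.55, 1.81 and 3.07 with corticosteroid, a mean 1.32 higher. Control array 4 lay within the treated range for both of these pairs. In both the slow partner had the larger difference. TNNI1 differed by -1.17 (SE 0.44, adjusted p = 0.482 in limma) and TNNI2 by 0.51. TNNC1 differed by -0.89 (SE 0.35, adjusted p = 0.484 in limma) and TNNC2 by 0.43.

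MYLPF minus the slow regulatory light chain MYL2 was 0.70, 0.10, -0.015 and 1.03 in controls and 1.34, 1.41, 1.10 and 2.42 with corticosteroid. The groups did not overlap and the mean was 1.11 higher with corticosteroid, although MYLPF alone differed by 0.13. Both MYLPF and MYL2 lay in re-assigned rows, as did TNNC2, TNNC1 and TNNI1, so 3 of the 6 pairs rest on the re-assignment. MYL2 itself differed by -0.98 (SE 0.28, adjusted p = 0.479 in limma). MYL1 minus the slow essential light chain MYL3 overlapped, at 2.42 to 4.30 in controls and 3.42 to 4.63 with corticosteroid. TPM1 minus TPM3, a tropomyosin of slow fibres and of many other cells, was 4.92, 1.43, 3.89 and 4.80 in controls and 4.77, 5.14, 5.43 and 5.60 with corticosteroid. Its mean was 1.47 higher with corticosteroid and 0.70 higher without control array 2, on which TPM3 was high. TPM3 itself differed by -0.88 (SE 0.53) and MYL3 by -0.56 (SE 0.42).

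**Figure D4:**
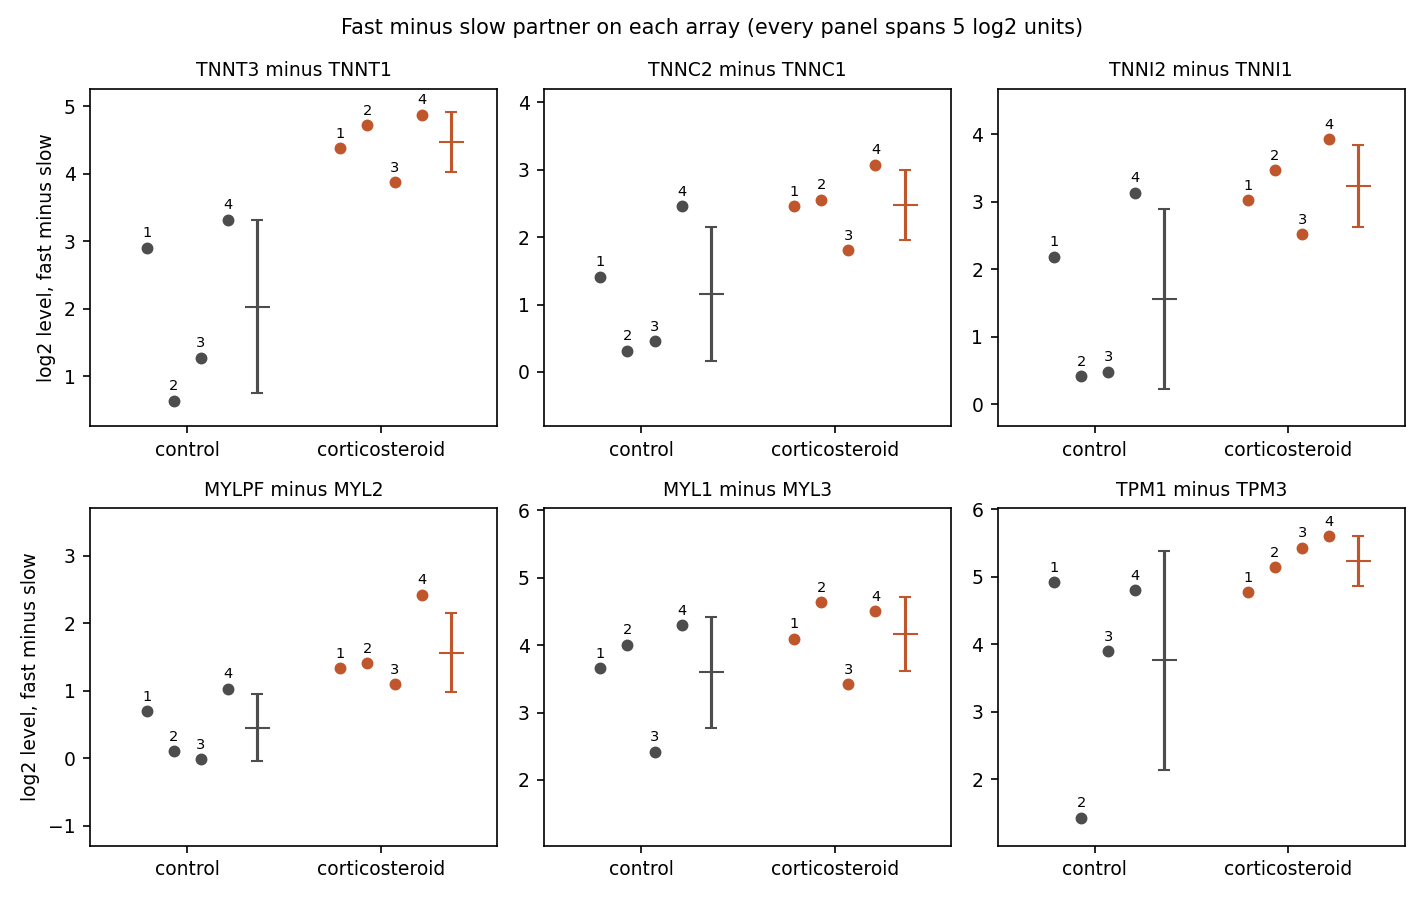
Log2 level of each fast gene minus that of its slow-fibre partner on each array, with grey points for control, orange points for corticosteroid, replicate numbers, and mean with SD (n = 4). All 6 means are higher with corticosteroid, and the groups do not overlap for TNNT3 minus TNNT1 and MYLPF minus MYL2.

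The genes outside these lists whose levels followed the members most closely were found among 5406 genes by the correlation with the members' mean level over the 8 arrays, after the mean of each group was taken off. The first was PRADC1, a protease-associated domain protein, with Pearson's r = 0.979 and Spearman's rho = 0.952. FGF13, a fibroblast growth factor relative that stays inside the cell, had 0.975 and 0.952, and C13H21orf59 had 0.974 and 0.976. LONP1, a protease of the mitochondrial matrix, had 0.974 and 0.976. RYR1, the calcium release channel of the sarcoplasmic reticulum, had 0.971 and 0.905. Without control array 2 Pearson's r lay between 0.945 and 0.963 for these 5. The values share their arrays, and the genes were picked as the highest of many, so they are a description. RYR1 had log2 levels of 12.29, 11.07, 11.77 and 12.30 in controls and 12.14, 12.25, 12.39 and 12.64 with corticosteroid, low on the same control arrays as TNNT3.

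The values of 3 member probe sets rest on the re-assignment of rows described with the processing. For TNNC2 the row as deposited holds a mean corticosteroid level of 7.04, for MYLPF 5.49 and for TPM1 Ssc.12185.1.A1_at 3.07. Each of them lies 1 row from the value used here. The 5 other member probe sets, those of TNNT3, TNNI2, MYL1 and 2 of TPM1, kept their rows.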

How the data were processed

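The deposited table holds log2 expression levels made by the authors from 1 Affymetrix porcine array per sample; per the submitters' processing notes MAS5 was used, and neither a genome build nor the scaling between arrays was given in the sources used here. Samples were grouped by their titles. The probe IDs are in character order. Corticosteroid values were re-assigned to the IDs sorted with full stops ignored, an order found from the values in earlier work on these data; it moves 9389 probe sets (39.1%) and has 0 tied IDs. Over those rows the correlation of group means across probe sets was 0.0997 as deposited and 0.9888 afterwards.

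Probe sets were named from the platform annotation (10069 with 1 symbol, 198 with several, 13732 with none). Gene IDs of 9961 were found in the RefSeq table of Sscrofa11.1, which was used for names and gene order only. Left out were 64 reporter probe sets. The comparison used limma 3.58.1 in R 4.3.3 (lmFit, eBayes with an intensity trend, Benjamini-Hochberg adjustment at 0.05). It covered the 14361 probe sets with a mean above the 40th percentile (5.2723). The fit was also run on simulated data with the same spread in both groups and probe sets drawn independently. That run cannot show how the fit does with unequal spreads or with arrays that shift many genes together. Tables used Python 3.11.15, pandas 2.3.3 and numpy 2.4.6. Members, lists and tests were chosen with earlier results of these data known. All member probe sets, the measured genes of the fast- and slow-fibre lists, and the 5 genes most like the members could be named; AKR1CL1 and the markers were named after their values were seen. Alternatives covered the replicate number, scaling, filter, offset, variance model, array weights, row order, averaging a gene's probe sets and leaving out arrays.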

Additional observations from a re-analysis of the deposited data

Results flagged for a closer look

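Among 44 groups of 4 arrays examined, 2 held an array far from the other three, and chance alone marks about 1 in 20 such groups. TPM3 (Ssc.1829.1.S2_at) had a log2 level of 11.15 on control array 2, 2.37 above the nearest control array (8.78). MYH2 (Ssc.15909.1.S1_at) had a log2 level of 13.16 on corticosteroid array 1, 0.58 below the nearest treated array (13.74).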

How the results depend on the processing

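No member probe set passed an adjusted p of 0.05 under any alternative that keeps the re-assigned rows, and all 6 lead differences stayed above 0 in them except as follows. MYL1 differed by -0.048 after quantile normalization, by -0.028 to 0.052 when each array was left out, and by -0.062 without control arrays 2 and 3, a setting in which MYLPF differed by -0.018 and MYH2 by -0.083. The TPM1 probe set Ssc.13956.1.S1_at differed by 0.20 with array weights, by -0.21 to 0.24 with an array left out and by 0.36 without control arrays 2 and 3. With the rows as deposited TNNC2 differed by -6.73, MYLPF by -8.44 and MYOZ1 by -2.61. With those rows 5454 probe sets passed the adjusted threshold and 6101 the unadjusted one. Leaving out each array gave 0 to 1 adjusted calls (AKR1CL1, a reductase, at -1.88 without control array 3) and 894 to 1777 unadjusted ones, with 894 without corticosteroid array 4 and 903 without control array 3. The unadjusted count was 2160 with no filter on level, where more probe sets are tested, and 670 without control arrays 2 and 3. The cause of the other changes was not tested. With the replicate number as a replicate block the unadjusted count was 1332 and no call changed. The numbers were not taken to pair the samples, since same-numbered arrays correlated in their deviations with r from -0.246 to 0.109, and 2 of 4 control arrays correlated best with their own number. The number of arrays limits what could be found, and whether the members' signal flattens near the top of the range was not tested.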
